A study of Mus musculus with 29 samples.

Results

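The 10 genes described here move calcium ions into, out of and within the smooth muscle cells of the aortic wall. They are the exchangers Slc24a3, Slc24a4 and Slc8a1, the pumps Atp2a2, Atp2b1 and Atp2b4, the pump regulator Pln, the entry channel Cacna1c and the release channels Itpr1 and Ryr2. Slc24a3 and Slc24a4 were chosen on their measured differences between these same groups of mice, so their values are given as a description and no test is read from them. The other 8 were chosen for their function. All 10 were among the 12353 genes with enough counts for testing, out of 56748 genes in the table. Slc24a4 and Pln were the scarce ones, with 2 to 58 and 1 to 68 reads per sample, and each exceeded 10 reads in 19 of the 28 samples used.

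A smooth muscle cell contracts when calcium in its cytoplasm rises, binds calmodulin and activates myosin light chain kinase. Calcium enters through the L-type channel Cacna1c and leaves the sarcoplasmic reticulum through the IP3 receptor Itpr1 and the ryanodine receptor Ryr2. It is pumped back into the reticulum by SERCA2 (Atp2a2, held back by phospholamban, Pln) and out of the cell by the plasma membrane pumps (Atp2b1, Atp2b4), by sodium/calcium exchange (Slc8a1) and by potassium-dependent sodium/calcium exchange (Slc24a3, Slc24a4).

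RNA was sequenced from the aortic arch of 29 mice perfused with PBS, 1 sample per mouse. Ercc1Δ/− mice carry a null and a truncated, hypomorphic Ercc1 allele in all their cells, are deficient in DNA repair and age early, and WT littermates of the same C57BL6J/FVB hybrid background served as controls. At 6 weeks of age, 5 WT and 5 Ercc1Δ/− mice had been fed AL, with unlimited access to pellets. At 22 weeks, 4 WT and 4 Ercc1Δ/− mice had been fed AL, and 5 of each genotype had been on DR, begun at 7 weeks of age and held at 30% from 9 weeks. Males and females were in every group, with 2 females and 3 males in each except those of 22 weeks on AL. The latter held 1 female and 3 males in WT and 2 of each sex in Ercc1Δ/−. Mice were housed singly. Another WT library of that age on AL, numbered 003, was left out because it held only 400410 counts.

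The other 28 samples held 921167 to 9616382 counts on genes, with a median of 3256708. At 22 weeks the totals of the genotypes did not overlap on either diet. On AL they were 1294980 to 3855444 counts in Ercc1Δ/− and 3903589 to 9616382 in WT. On DR they were 921167 to 2572523 in Ercc1Δ/− and 2660422 to 6124471 in WT. Ercc1 itself was lower in the Ercc1Δ/− groups, with means of 41.8 to 58.8 normalized counts against 102 to 115 in the WT groups. All 10 smooth muscle markers were detected in every sample and so, of 11 cardiac muscle markers, were Tnnt2 (57.4 to 1836 normalized counts) and Myl4, while Myl2 and Nppa were at 0 in 26 of 28. Sample 013 (Ercc1Δ/−, 22 weeks, AL) stood apart with 833 counts of skeletal muscle markers against 7.86 to 43.2 in the others.

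The promoters of these genes, 250 bases before and 50 after each annotated start, came from RefSeq (GRCm38.p6), which held 12 of them for 8 of the genes. Atp2a2 and Itpr1 had no entry. The windows were searched on both strands for the CArG box, bound by serum response factor at many contractile genes, for TATAAA and for the GC box GGGCGG. None of the 12 held a CArG box, which 1.63% of all 32851 promoters did. TATAAA was in the promoter of Pln alone (13.6% of all promoters), and the GC box in at least 1 promoter of Slc24a3, Atp2b1, Cacna1c and Ryr2 (35.7% of all). The exchangers that the earlier results singled out are shown with Cacna1c, Atp2b4 and Pln, since they span the range from CG-rich to CG-poor starts. Capitals mark a GC box on either strand or TATAAA.
Slc24a3, chr2:145167525-145167824, plus strand: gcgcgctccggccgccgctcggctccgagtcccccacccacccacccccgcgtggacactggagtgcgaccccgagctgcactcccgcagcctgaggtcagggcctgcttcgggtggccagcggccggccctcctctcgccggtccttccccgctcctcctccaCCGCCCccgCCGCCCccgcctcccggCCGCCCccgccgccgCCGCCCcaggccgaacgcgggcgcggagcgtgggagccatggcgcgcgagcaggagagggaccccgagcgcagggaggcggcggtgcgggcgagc
Slc24a4, chr12:102128477-102128776, plus strand: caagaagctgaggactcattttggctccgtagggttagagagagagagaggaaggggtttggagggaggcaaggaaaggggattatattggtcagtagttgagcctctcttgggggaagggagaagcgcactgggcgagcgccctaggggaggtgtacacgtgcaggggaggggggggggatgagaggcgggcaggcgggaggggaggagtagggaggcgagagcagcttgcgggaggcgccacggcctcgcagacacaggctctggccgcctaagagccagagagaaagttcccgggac
Cacna1c, chr6:119108446-119108745, minus strand: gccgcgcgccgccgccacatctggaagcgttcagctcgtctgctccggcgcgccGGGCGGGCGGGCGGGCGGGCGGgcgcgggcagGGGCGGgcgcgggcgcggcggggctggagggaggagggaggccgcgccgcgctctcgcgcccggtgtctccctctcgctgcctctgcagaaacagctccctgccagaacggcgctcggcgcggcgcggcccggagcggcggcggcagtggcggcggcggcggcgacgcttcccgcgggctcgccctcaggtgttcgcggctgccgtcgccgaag
Atp2b4, chr1:133753698-133753997, minus strand: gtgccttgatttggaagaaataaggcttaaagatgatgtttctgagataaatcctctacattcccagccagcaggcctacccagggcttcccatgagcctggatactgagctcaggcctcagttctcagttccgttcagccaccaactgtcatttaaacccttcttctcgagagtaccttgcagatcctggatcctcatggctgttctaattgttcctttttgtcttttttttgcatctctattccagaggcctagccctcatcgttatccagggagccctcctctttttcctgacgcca
Pln, chr10:53337436-53337735, plus strand: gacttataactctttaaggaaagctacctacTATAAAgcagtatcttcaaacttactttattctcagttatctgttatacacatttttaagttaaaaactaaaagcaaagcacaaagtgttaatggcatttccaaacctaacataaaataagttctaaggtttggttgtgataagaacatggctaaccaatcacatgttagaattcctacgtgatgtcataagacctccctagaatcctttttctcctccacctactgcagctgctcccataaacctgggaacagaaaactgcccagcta
The Slc24a3 and Cacna1c windows held 43 and 57 CG dinucleotides and that of Slc24a4 held 14, against a median of 7 over all promoters. The windows of Atp2b4 and Pln held 4 and 1. Slc24a3 had a further window with 15, and Cacna1c had further ones with 7 and 3, so their CG-rich starts are the ones shown. Which of its annotated starts a gene uses in the aorta was not measured here.

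The comparisons ask how calcium handling transcripts differ between Ercc1Δ/− and WT aorta, with age, and with DR. A DEG had to change by 1.2-fold or more with an edgeR p, adjusted by the Benjamini-Hochberg method, not above 0.05, and the share of all tested genes called is given beside the counts. The clearest difference was between genotypes at 22 weeks on AL. There 5 of the 10 genes, and 4 of the 8 chosen for function (Atp2a2, Atp2b4, Cacna1c and Itpr1), were called lower in Ercc1Δ/−, and none higher. Of all tested genes, 6.16% were called lower and 5.88% higher. The median log2 fold change of the 8 was -0.58, and that of all tested genes 0.03. In 5 of the 8 every Ercc1Δ/− sample lay below every WT sample, which held for 9.8% of tested genes.

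At 6 weeks none of the 10 was called, where 1.13% of tested genes were called lower and 0.567% higher. There 5 had an unadjusted p under 0.05 in edgeR, and DESeq2 called 3 (Slc24a3, Itpr1 and Ryr2). On DR at 22 weeks, 2 of the 10 and 1 of the 8 (Atp2b4) were called lower in Ercc1Δ/−, beside 7.03% lower and 5.97% higher of all tested genes. Atp2a2 and Itpr1 passed the adjusted p there but were under the fold threshold. The median of the 8 on DR was -0.33, against 0.00 for all tested genes.

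With age in Ercc1Δ/− mice, 4 of the 10 and 2 of the 8 (Atp2b4 and Cacna1c) were called lower at 22 than at 6 weeks, beside 2.57% of tested genes. Itpr1 was just above the threshold in edgeR (-0.35 ± 0.10, adjusted p = 0.0513) and was called lower in DESeq2 (adjusted p = 0.0187). In WT mice age gave no call among the 10 in edgeR or DESeq2, with 1 unadjusted p under 0.05, beside 0.138% lower and 0.0971% higher of all. The genotype difference itself differed between the ages in 1 of the 10, Slc24a3, and in none of the 8 in edgeR (0.47% of tested genes in that direction). Among the 8 it had 4 unadjusted p under 0.05, and DESeq2 called Cacna1c and Itpr1 besides Slc24a3. DR went with higher Slc24a4 in both genotypes and by higher Itpr1 in Ercc1Δ/− mice, which made 1 call among the 10 in WT (0.34% of tested genes higher, 0.939% lower) and 2 in Ercc1Δ/− (0.648% higher). Nothing is read from the Slc24a4 calls against these shares, since it was chosen on them. Among the 8, DR in WT gave no call in edgeR or DESeq2, with 2 unadjusted p under 0.05. None of the 10 had a genotype difference that differed between diets in edgeR, where 4 had an unadjusted p under 0.05 and DESeq2 called Itpr1, beside 0.0405% and 0.0567% of tested genes in the negative and positive direction.

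**Figure D1:**
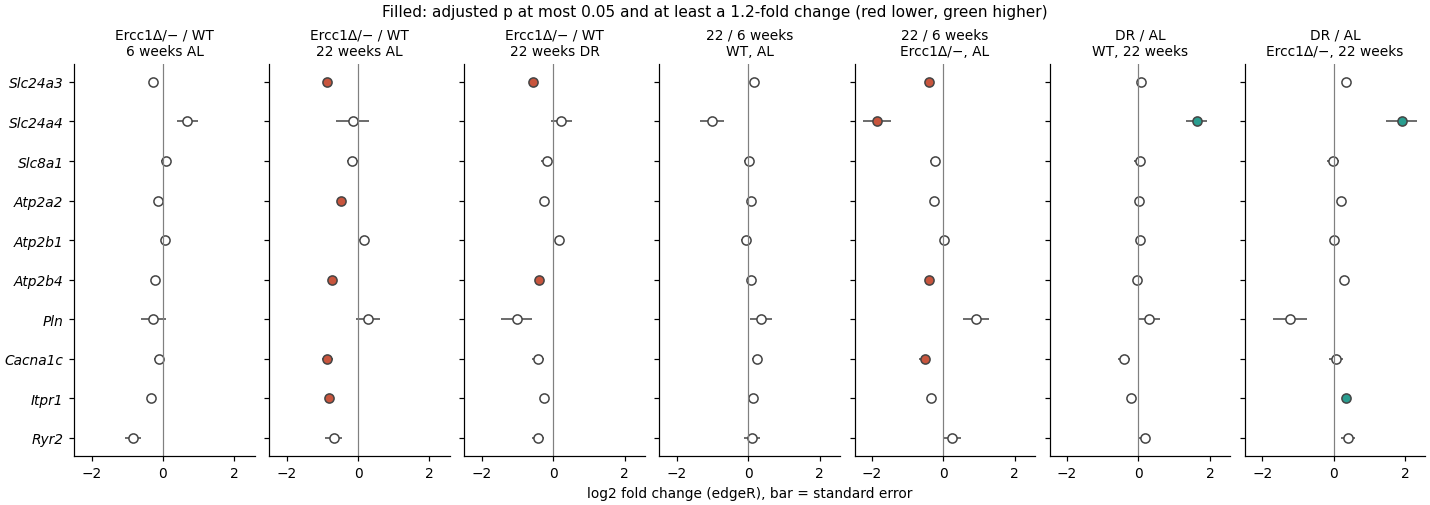
Log2 fold changes (x axis, with the standard error of the edgeR fit) of the 10 genes in each of 7 comparisons, with called genes filled. At 22 weeks on AL the called genes lie between -0.86 and -0.48. The largest values of the plot are those of Slc24a4 with age in Ercc1Δ/− and with diet in both genotypes.

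Slc24a3 (NCKX3, ENSMUSG00000063873; GRCm39 chromosome 2, 145009674 to 145484086) exchanges calcium and potassium for sodium at the plasma membrane. On the scale of normalized counts, its values in AL-fed mice of 22 weeks were 590.2, 597, 591 and 605 in WT and 334, 323, 284 and 375 in Ercc1Δ/−. At 6 weeks they were 567, 542, 514, 519.8 and 535 in WT and 414, 451, 479, 460.0 and 378 in Ercc1Δ/−. The genotypes did not overlap at either age, and the WT samples of 22 weeks were the tightest group of all, with a coefficient of variation of 1.13%.

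The log2 difference of Slc24a3 between genotypes was -0.29 ± 0.08 (SE) at 6 weeks and -0.86 ± 0.10 at 22 weeks, where it fell by 44.8%. On DR the WT samples held 588, 649, 671, 581 and 619 normalized counts and the Ercc1Δ/− samples 404, 377, 378, 419.5 and 504, again without overlap. Every Ercc1Δ/− sample on DR lay above every one on AL, and every one lay below all WT samples. Age in Ercc1Δ/− mice went with -0.41 ± 0.09, and DR with 0.35 ± 0.10 in Ercc1Δ/− and 0.06 ± 0.09 in WT. The left-out WT sample 003 held 627.

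Slc24a4 (NCKX4, ENSMUSG00000041771; chromosome 12, 102094935 to 102235402) is a related exchanger best known from tooth enamel and sensory neurons. Its values differed most between diets and ages. The WT samples of 22 weeks on AL held 13.6, 4.15, 6.84 and 12.2 normalized counts and those on DR 21.4, 29.1, 19.5, 33.6 and 35.3. The Ercc1Δ/− samples held 6.30, 8.39, 5.57 and 12.4 on AL and 21.2, 43.2, 55.0, 25.9 and 22.8 on DR. In both genotypes all DR samples lay above all AL samples, and the genotypes overlapped on each diet.

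The log2 difference of Slc24a4 with DR was 1.63 ± 0.30 in WT and 1.91 ± 0.43 in Ercc1Δ/−, and the difference between these was 0.28 ± 0.56. At 6 weeks it stood at 14.3, 22.9, 20.1, 11.4 and 19.5 in WT and at 20.5, 24.2, 42.1, 39.4 and 21.9 in Ercc1Δ/−, with overlap and a log2 difference of 0.69 ± 0.29. The log2 difference of 22 from 6 weeks was -1.02 ± 0.33 in WT and -1.86 ± 0.40 in Ercc1Δ/−. These values rest on 2 to 58 reads per sample. With all samples thinned to 921167 counts, the difference with DR was 0.81 in WT and 1.65 in Ercc1Δ/−, and neither was called.

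**Figure D2:**
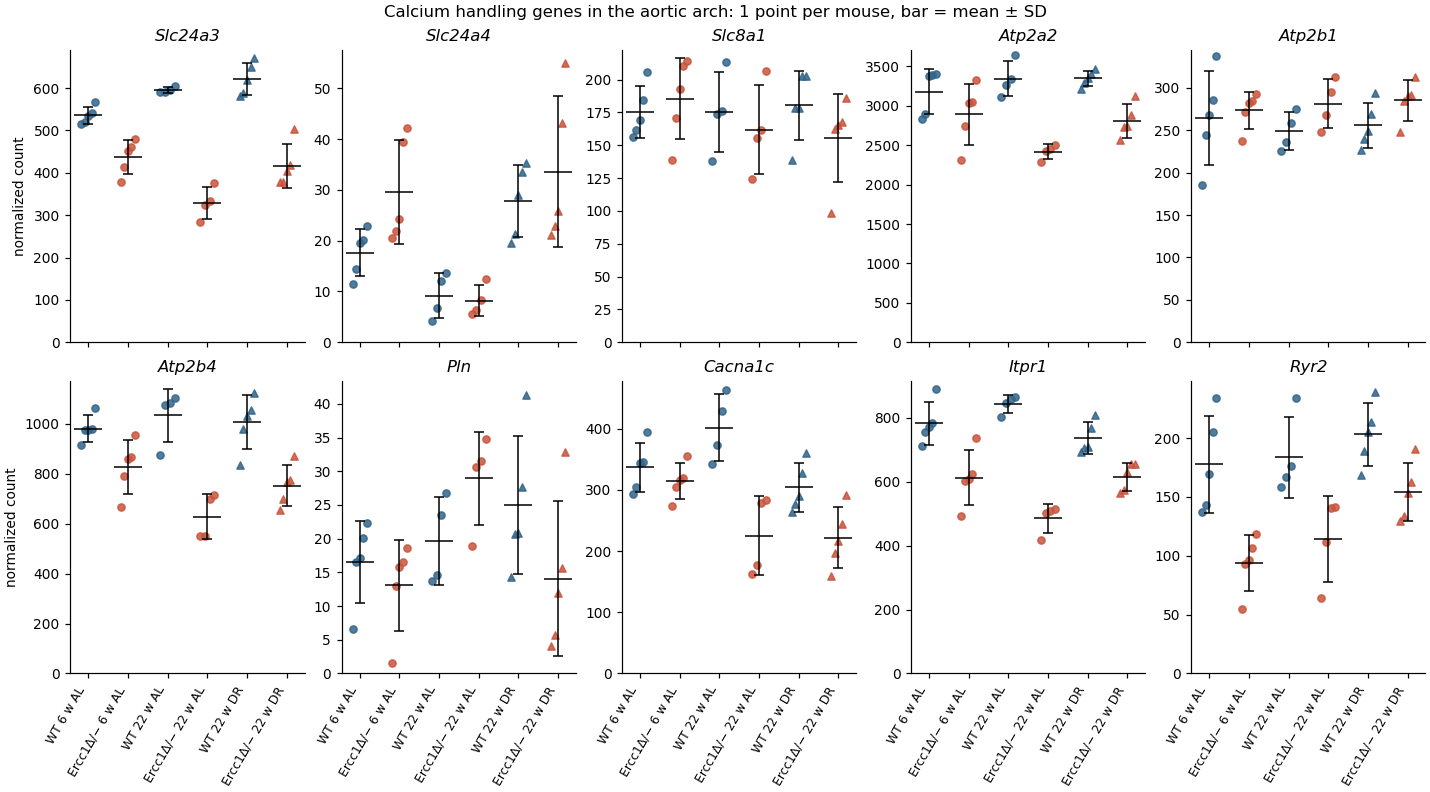
Normalized counts (y axes from 0) of the 10 genes in the 28 samples, 1 point per mouse, blue for WT and red for Ercc1Δ/−, circles for AL and triangles for DR, with the mean and SD of each group. Slc24a3, Atp2a2 and Itpr1 separate the genotypes at 22 weeks on both diets, whereas Slc24a4 separates the diets.

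Slc8a1 (NCX1), the main sodium/calcium exchanger of heart and vascular muscle, was called in none of the comparisons. Its group means lay between 156 and 186 normalized counts. The genotype difference was -0.16 ± 0.16 at 22 weeks on AL (adjusted p = 0.572) and -0.18 ± 0.15 on DR (adjusted p = 0.498), and the samples of the genotypes overlapped at each age and diet. Of its relatives, Slc8a2 (NCX2) was lower in Ercc1Δ/− on DR by -0.79 ± 0.16 (adjusted p = 0.00157) and at -0.49 ± 0.18 on AL did not pass (adjusted p = 0.0765). Slc8b1, the mitochondrial sodium/calcium exchanger, was higher on AL by 0.50 ± 0.13 (adjusted p = 0.0169). Slc24a1, Slc24a2 and Slc24a5 reached at most 4 reads in a sample and were not tested.

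Atp2a2 (SERCA2, ENSMUSG00000029467; chromosome 5, 122591575 to 122640903) fills the sarcoplasmic reticulum and was the most abundant of the 10 per kilobase of exon, at 273 ± 18.2 normalized counts (SD, n = 4) in WT at 22 weeks on AL. The WT samples held 3642, 3113, 3268 and 3342 normalized counts and the Ercc1Δ/− samples 2291, 2429.9, 2452 and 2504. The Ercc1Δ/− samples lay close together and all below WT. Atp2a2 fell by 28.1% (log2 -0.48 ± 0.11, adjusted p = 0.00435).

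On DR Atp2a2 stood at 3356, 3211, 3294, 3407 and 3469 normalized counts in WT and at 2739, 2562, 2729.8, 3129 and 2890.1 in Ercc1Δ/−. The genotypes still did not overlap, but the log2 difference of -0.25 ± 0.07 (adjusted p = 0.0219) was under the fold threshold. At 6 weeks it was -0.12 ± 0.09 (adjusted p = 0.65), with overlapping samples between 2314 and 3405. The SERCA3 gene Atp2a3 did not pass between genotypes on AL (0.13 ± 0.20, adjusted p = 0.719) and was called higher in Ercc1Δ/− on DR (0.37 ± 0.11, adjusted p = 0.0209). Atp2a2 overlaps the gene Anapc7 on the genome, and reads shared between overlapping genes may be lost to both.

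Atp2b4 (PMCA4, ENSMUSG00000026463; chromosome 1, 133627195 to 133728923), a plasma membrane calcium pump, was the one of the 8 that was called between genotypes on both diets. At 22 weeks on AL the WT samples held 877, 1104, 1076 and 1084 normalized counts and the Ercc1Δ/− samples 549, 549.5, 713 and 698. On DR the values were 1056, 1031.5, 837, 1126 and 980.1 in WT and 654, 766, 775, 870.4 and 698 in Ercc1Δ/−. The groups were apart on AL, and on DR 1 Ercc1Δ/− sample exceeded the lowest WT sample.

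Atp2b4 fell by 39.5% on AL (log2 -0.73 ± 0.12, adjusted p = 2.35e-04) and fell by 24.7% on DR (-0.41 ± 0.10, adjusted p = 0.00872). At 6 weeks its difference was -0.23 ± 0.10 (adjusted p = 0.339), with 666 to 957 normalized counts in Ercc1Δ/− and 914 to 1062 in WT. In Ercc1Δ/− it was lower at 22 than at 6 weeks (-0.41 ± 0.11, adjusted p = 0.0312), a call lost in 7 of 18 alternatives, and the genotype difference did not pass as differing between the ages (-0.50 ± 0.16, adjusted p = 0.165). Atp2b1 (PMCA1), the pump that most cells carry, was called in none of the comparisons and stood at 281 ± 28.9 normalized counts in Ercc1Δ/− and 249 ± 22.4 in WT at 22 weeks on AL (SD, n = 4 each; log2 0.15 ± 0.14, adjusted p = 0.515). Atp2b2 (PMCA2) was at -0.73 ± 0.34 and did not pass (adjusted p = 0.168).

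Pln, whose product phospholamban restrains SERCA2, was scarce. It stood at 14.6, 26.7, 13.7 and 23.6 normalized counts in WT and at 31.5, 18.9, 30.6 and 34.8 in Ercc1Δ/− at 22 weeks on AL. On DR it held 20.7, 27.6, 20.8, 14.4 and 41.4 in WT and 32.9, 15.7, 12.0, 4.09 and 5.71 in Ercc1Δ/−. The groups overlapped on both diets, and no comparison was called. Its genotype difference was 0.27 ± 0.34 on AL (adjusted p = 0.655) and -1.02 ± 0.43 on DR (adjusted p = 0.12), and the test of the change between the diets gave -1.52 ± 0.56 (adjusted p = 0.418). The Ercc1Δ/− sample on DR with the highest Pln, sample 006, held 1951 normalized counts of cardiac muscle markers, and sample 029 with 5.71 of Pln held 2150. Pln lies within Cep85l on the opposite strand, and whether the authors counted by strand is not given in the sources used here. Its relative sarcolipin, Sln, reached at most 9 reads and was not tested.

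Cacna1c (ENSMUSG00000051331; chromosome 6, 118564201 to 119173851) encodes the pore of the L-type channel through which depolarized smooth muscle takes up calcium. At 22 weeks on AL the WT samples held 342, 429, 462 and 374 normalized counts and the Ercc1Δ/− samples 162, 177, 279 and 283. The groups were apart, and the Ercc1Δ/− samples formed a low and a high pair. Samples 004 and 005, the low pair and both female, also had the lowest sums of smooth muscle markers, 62715 and 70224. Cacna1c fell by 45.0% (log2 -0.86 ± 0.16, adjusted p = 7.07e-04), the largest fall by fold among the 8.

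On DR Cacna1c stood at 264, 277, 289.8, 361 and 328 in WT and at 159.9, 216, 196, 291 and 244 in Ercc1Δ/−, with overlap (-0.43 ± 0.17, adjusted p = 0.116). The WT samples on DR were also below most of those on AL, at -0.41 ± 0.17 (adjusted p = 0.293). At 6 weeks the genotypes overlapped, with 293 to 395 in WT and 273 to 355 in Ercc1Δ/− (-0.10 ± 0.14, adjusted p = 0.823). In Ercc1Δ/− Cacna1c was lower at 22 than at 6 weeks (-0.52 ± 0.15, adjusted p = 0.0483), and this call was lost in 10 of 18 alternatives. Cacna1c overlaps Dcp1b on the genome.

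Itpr1 (ENSMUSG00000030102; chromosome 6, 108190048 to 108528070), the IP3-gated release channel of the reticulum, held 802, 846, 865 and 858 normalized counts in WT and 507, 502, 418 and 514 in Ercc1Δ/− at 22 weeks on AL. The lowest WT sample stood far above the highest Ercc1Δ/− sample. Itpr1 fell by 42.9% (log2 -0.81 ± 0.11, adjusted p = 3.03e-05). At 6 weeks it held 754, 784, 711, 891 and 772 in WT and 608, 738, 625.1, 602 and 492 in Ercc1Δ/−, where 1 Ercc1Δ/− sample reached into the WT range (-0.34 ± 0.09, adjusted p = 0.0658).

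On DR the Itpr1 values were 807, 767, 708, 706 and 694 in WT and 574, 566, 629, 655 and 656 in Ercc1Δ/−. All Ercc1Δ/− samples on DR lay above all those on AL, and the WT samples on DR were mostly below those on AL. Itpr1 rose with DR in Ercc1Δ/− mice (0.35 ± 0.09, adjusted p = 0.0389), a call that was lost in 12 of 18 alternatives, and stood at -0.20 ± 0.08 in WT (adjusted p = 0.274). The test of the difference between these gave 0.55 ± 0.12 and did not pass (adjusted p = 0.07). The other IP3 receptors, Itpr2 (0.05 ± 0.20, adjusted p = 0.901) and Itpr3 (0.02 ± 0.19, adjusted p = 0.958), were not called between genotypes on AL.

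Ryr2, the ryanodine receptor best known from heart muscle, held 234, 176, 167 and 158 normalized counts in WT and 140.4, 64.0, 111 and 142 in Ercc1Δ/− at 22 weeks on AL. The groups were apart, but the spread within them was wide, and the difference of -0.69 ± 0.25 did not pass (adjusted p = 0.079). At 6 weeks the values were 143, 169, 205, 234 and 138 in WT and 92.6, 96.8, 106.9, 118 and 54.7 in Ercc1Δ/−, also apart and also not called (-0.83 ± 0.22, adjusted p = 0.0686). On DR the samples held 205, 189, 169, 213 and 239 in WT and 190.4, 153, 163, 133 and 129 in Ercc1Δ/−, with overlap (-0.41 ± 0.17, adjusted p = 0.115). The median sum of the cardiac muscle markers was 589 in Ercc1Δ/− and 165 in WT at 6 weeks, 985 and 485 at 22 weeks on AL and 1197 and 587 on DR. The median log2 fold change of the 6 cardiac markers tested was 1.33, -0.27 and 1.29 in these comparisons, with 0, 1 and 1 of them called higher and none lower, so the sum and the median differed in sign at 22 weeks on AL. Their part in the Ryr2 values was not tested. Ryr1 and Ryr3 reached at most 12 and 6 reads in a sample and were not tested.

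Per kilobase of exon, the order of mean levels in WT at 22 weeks on AL was Atp2a2 (273), Slc24a3 (128 ± 1.45), Atp2b4 (83.5 ± 8.57), Itpr1 (46.0 ± 1.55), Cacna1c (18.0 ± 2.42), Atp2b1 (15.0 ± 1.35), Slc8a1 (9.23 ± 1.62), Ryr2 (6.07 ± 1.13), Pln (3.19 ± 1.06) and Slc24a4 (1.39 ± 0.67; normalized counts per kb of exon, SD, n = 4). Neighbours from Atp2a2 to Cacna1c differed by more than their spreads, whereas the SDs of Cacna1c and Atp2b1 overlapped. The counts were made over the whole gene body, so reads from introns may enter, and exon length is then only an approximate scale. In Ercc1Δ/− at the same age and diet Atp2b1 stood at 17.0 ± 1.74 and Cacna1c at 10.1 ± 2.89, so these neighbours changed places.

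The markers of smooth muscle cells themselves were lower in Ercc1Δ/− at 22 weeks. The 10 markers summed to 120340, 127490, 142410 and 143530 normalized counts in WT on AL and to 62715, 70224, 95434 and 97132 in Ercc1Δ/−, without overlap. Of the 10, 8 were called lower, among them Myh11 (-0.96 ± 0.17, adjusted p = 7.03e-04) and Cnn1 (-0.77 ± 0.12, adjusted p = 2.01e-04), with a median of -0.80. On DR 9 were called lower, with a median of -0.63, and the sums were 87911 to 95137 in Ercc1Δ/− and 124280 to 161350 in WT. In bulk tissue, fewer smooth muscle cells and less RNA per cell cannot be told apart.

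The members were also set against 1000 normalized counts of these markers, a ratio computed after the values had been seen. Slc24a3 stood at 4.49 ± 0.44 in WT and 4.20 ± 1.02 in Ercc1Δ/− on AL, and at 4.63 ± 0.50 and 4.57 ± 0.57 on DR (SD, n = 4 and 5 per group). Atp2b4 stood at 7.83 ± 1.29 and 7.81 ± 0.67, Cacna1c at 3.02 ± 0.43 and 2.74 ± 0.22 and Itpr1 at 6.36 ± 0.66 and 6.23 ± 1.70 on AL, so that the means of each of these pairs differed by less than the larger of their SDs. On the same diet Atp2a2 stood at 25.1 ± 2.10 in WT and 30.7 ± 5.74 in Ercc1Δ/−, Slc8a1 at 1.33 ± 0.30 and 2.05 ± 0.52 and Pln at 0.151 ± 0.060 and 0.363 ± 0.101. On DR the ratio of Itpr1 was higher in Ercc1Δ/− (6.75 ± 0.50 against 5.48 ± 0.60), and so was that of Atp2a2 (30.8 ± 2.74 against 25.0 ± 2.85). The ratio of Atp2b1 was higher on both diets, at 1.87 ± 0.21 in WT and 3.64 ± 1.16 in Ercc1Δ/− on AL and at 1.90 ± 0.15 and 3.12 ± 0.20 on DR, with all Ercc1Δ/− samples above all WT samples. The marker sums that divide these ratios were themselves lower in Ercc1Δ/−, so a gene at an unchanged level stands higher in them. Atp2b1 and Slc8a1 were not called between genotypes on either diet. How many of all tested genes separate in this ratio was not computed.

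Over the 28 samples, the log2 level of Atp2b4 correlated with the log2 marker sum at r = 0.865, that of Slc24a3 at 0.839, Atp2a2 at 0.795, Itpr1 at 0.785, Cacna1c at 0.71 and Ryr2 at 0.605. Those of Slc8a1, Pln and Slc24a4 stood at 0.286, 0.1 and 0.097, and that of Atp2b1 at -0.391. After each group's mean was taken out, no gene exceeded 0.46. These r values are a description over samples that share groups, and the log2 marker sum and the genes share the same libraries.

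**Figure D3:**
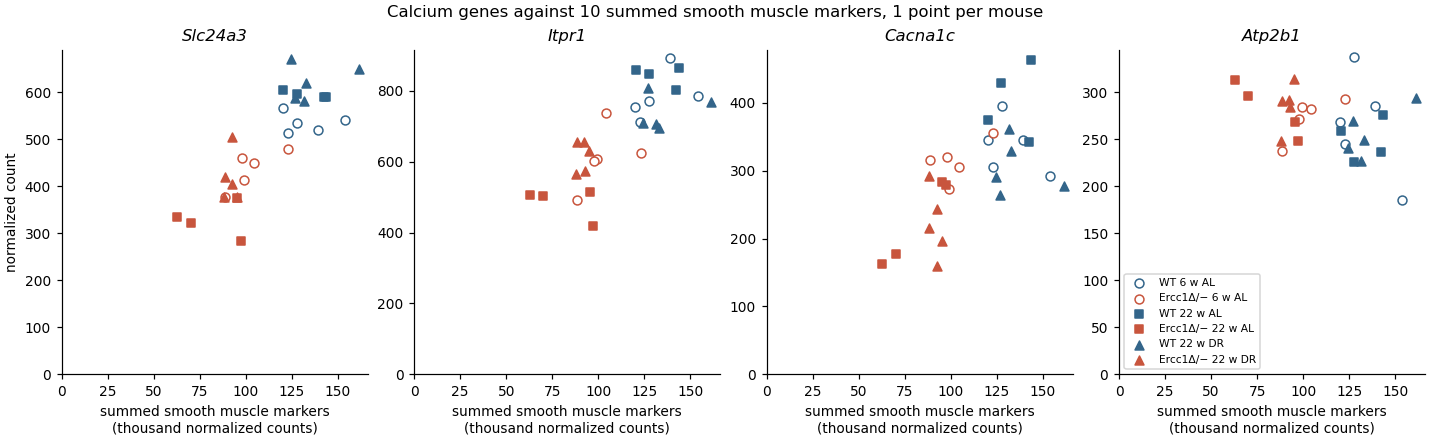
Normalized counts (y axes) of Slc24a3, Itpr1, Cacna1c and Atp2b1 against the sum of 10 smooth muscle markers in normalized counts divided by 1000 (x axes), 1 point per mouse, blue for WT and red for Ercc1Δ/−, open circles for 6 weeks, squares for AL and triangles for DR at 22 weeks. At 22 weeks the Ercc1Δ/− points of Slc24a3 and Itpr1 lie to the lower left of the WT points, and those of Atp2b1 do not lie lower. At 6 weeks the genotypes overlap in the marker sum and in Itpr1.

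Markers of other cells moved too. Of 7 macrophage markers tested, 6 were called higher in Ercc1Δ/− at 22 weeks on AL, with sums of 1950 to 3593 against 862 to 1283 in WT. With DR in Ercc1Δ/− mice 4 of the 7 were called lower, while 1 of the 10 smooth muscle markers, Synpo2, was called higher (0.51 ± 0.11, adjusted p = 0.0155). The share of all tested genes called lower with DR in Ercc1Δ/− is not reported here, so nothing is read from the 4. On DR 4 of the 7 macrophage markers and 4 of 8 endothelial markers were called higher in Ercc1Δ/−, with endothelial sums of 3456 to 5750 against 1866 to 3755 in WT (on AL 2664 to 4323 against 3329 to 4764). Of 6 fibroblast markers, 2 were called lower and none higher in Ercc1Δ/− at 22 weeks on AL, and 2 lower and 1 higher on DR. With age in Ercc1Δ/− mice 2 of the 6 were called lower. The part of all these markers in the values of the calcium genes was not tested. The 5 calls at 22 weeks on AL were also made without sample 013 and its skeletal muscle markers.

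The 5 genes called lower at 22 weeks on AL share that difference between groups, which enters their correlations. Over the 28 samples r was 0.875 between Slc24a3 and Itpr1, 0.842 between Slc24a3 and Atp2a2, 0.838 between Atp2a2 and Atp2b4 and 0.834 between Atp2b4 and Itpr1, on log2 CPM. Within groups it was 0.504, 0.354, 0.464 and 0.345 for these pairs, and over all 10 pairs of the 5 genes it ranged from -0.018 (Cacna1c and Itpr1) to 0.652 (Atp2b4 and Cacna1c), with 0.038 for Slc24a3 and Atp2b4. Of all other tested genes, Thsd4 was the most like Slc24a3 (r = 0.913) and Atp2b4 (0.921), and Scube3 the next (0.902 and 0.903). Cdc42bpa was the most like Itpr1 (0.911), Ppp1r14a, a smooth muscle inhibitor of myosin phosphatase, the most like Cacna1c (0.874), and the actin crosslinker Flna the most like Atp2a2 (0.871). For Ryr2 it was Cds2 (0.853), for Slc8a1 Rnf19a (0.772), for Pln Fchsd2 (0.71), for Slc24a4 Zmym5 (0.696) and for Atp2b1 Ephx1 (0.657). These r values are over 28 samples of 6 groups, so differences between groups enter them.

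Several of these genes are among the longest in the genome. The annotated spans were 609.7 kb for Cacna1c, 553.9 kb for Ryr2, 474.4 kb for Slc24a3, 365.4 kb for Slc8a1 and 338.0 kb for Itpr1, against a median of 25.9 kb over tested genes. Of 618 tested genes with a span of at least 200 kb, 17.8% were called lower and 3.56% higher in Ercc1Δ/− at 22 weeks on AL, and their median log2 fold change was -0.18. Of the 5 long genes here, 3 were called lower, all with a larger fall than that median, while Ryr2 stood at -0.69 ± 0.25 without a call and Slc8a1 at -0.16 ± 0.16. Atp2b4 (101.7 kb) and Atp2a2 (49.3 kb) are shorter and were called lower as well. The 2676 genes between 25 and 50 kb had a median of 0.02, and the 1123 between 100 and 200 kb one of -0.05.

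**Figure D4:**
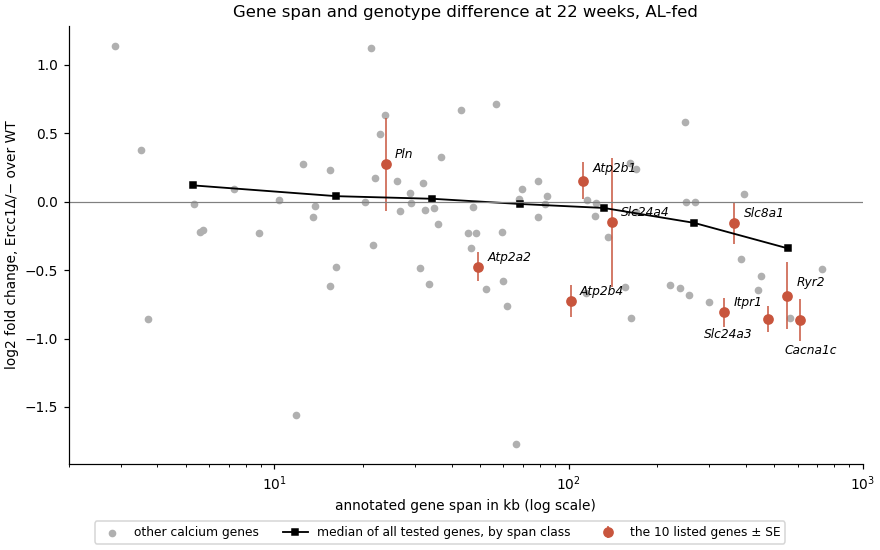
Log2 fold change of Ercc1Δ/− over WT at 22 weeks on AL (y axis) against annotated gene span in kb (x axis, log scale), for the 10 genes (red, with SE) and 73 other calcium genes (grey), with the median of all tested genes in 7 span classes (black). The black line runs from 0.12 in genes under 10 kb to -0.34 in those of at least 400 kb, and Cacna1c, Slc24a3, Itpr1, Ryr2, Atp2b4 and Atp2a2 lie below it by more than their SE.

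The rest of the calcium machinery was read from a list of 93 genes, of which 73 passed the count filter. At 22 weeks on AL, 14 of the 73 were called lower in Ercc1Δ/− and 2 higher, beside the 6.16% and 5.88% of all tested genes given above. DESeq2 called 17 of the 73. Their median log2 fold change was -0.07. By role, store release had 3 of 7 genes lower, voltage-gated entry 2 of 8, store buffers 2 of 6, calcium sensors 3 of 11, membrane potential 3 of 11 and pump regulators 1 of 3, while none of 14 genes of store-operated and TRP entry and none of 7 of mitochondrial uptake were called in edgeR (2 and 3 of them had an unadjusted p under 0.05).

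Named by the smallest p, the genes called lower were Casq1, a calcium-binding protein of the reticulum (-1.56 ± 0.18, adjusted p = 8.88e-06), the T-type channel Cacna1g (-1.77 ± 0.26, adjusted p = 1.06e-04), junctophilin Jph2, which ties the reticulum to the plasma membrane (-0.76 ± 0.12, adjusted p = 2.83e-04), the calcium-activated chloride channel Ano1 (-0.85 ± 0.14, adjusted p = 3.46e-04), Irag1, which lets cGMP signalling act on the IP3 receptor (-0.67 ± 0.13, adjusted p = 0.0011), Rcan2, a regulator of calcineurin (-0.63 ± 0.12, adjusted p = 0.00139), and the myosin light chain kinase Mylk (-0.68 ± 0.14, adjusted p = 0.00199). Atp1b1, a subunit of the sodium pump, was higher (1.13 ± 0.16, adjusted p = 7.36e-05). Jph2 held 1106 to 1672 normalized counts in Ercc1Δ/− and 2229 to 2694 in WT, and Atp1b1 368 to 488 against 139 to 233. In both the genotypes did not overlap.

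On DR, 16 of the 73 were called lower in Ercc1Δ/− and 5 higher, beside 7.03% and 5.97% of all tested genes, and DESeq2 called 24. Of the 25 genes called on either diet, 12 were called on both, 4 on AL alone and 9 on DR alone, and all 25 had the same sign on both diets. Some of these signs are weak, since on AL Itpr3 (0.02 ± 0.19), Cacnb3 (-0.03 ± 0.11), Piezo1 (0.10 ± 0.11) and Atp2a3 (0.13 ± 0.20) lay within their SE of no difference. The share with the same sign among all called genes was not computed, so nothing particular to calcium genes is read from it. Jph2 stood at -0.85 ± 0.11 (adjusted p = 6.07e-06), Rcan2 at -0.75 ± 0.08 (adjusted p = 8.16e-07) and Irag1 at -0.62 ± 0.10 (adjusted p = 1.10e-04). Kcnmb1, a subunit of the calcium-activated potassium channel, stood at -0.56 ± 0.08 (adjusted p = 4.73e-05). The calmodulin-dependent kinase Camk2g stood at -0.55 ± 0.08 (adjusted p = 5.82e-05), the calcium channel subunit Cacna2d1 at -0.73 ± 0.13 (adjusted p = 2.58e-04) and Atp1b1 at 0.71 ± 0.12 (adjusted p = 2.92e-04). Itpr3 was higher in Ercc1Δ/− on DR (0.58 ± 0.17, adjusted p = 0.0215). The comparisons on AL and DR share no samples, though the depth of the genotypes differed on both diets.

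**Figure D5:**
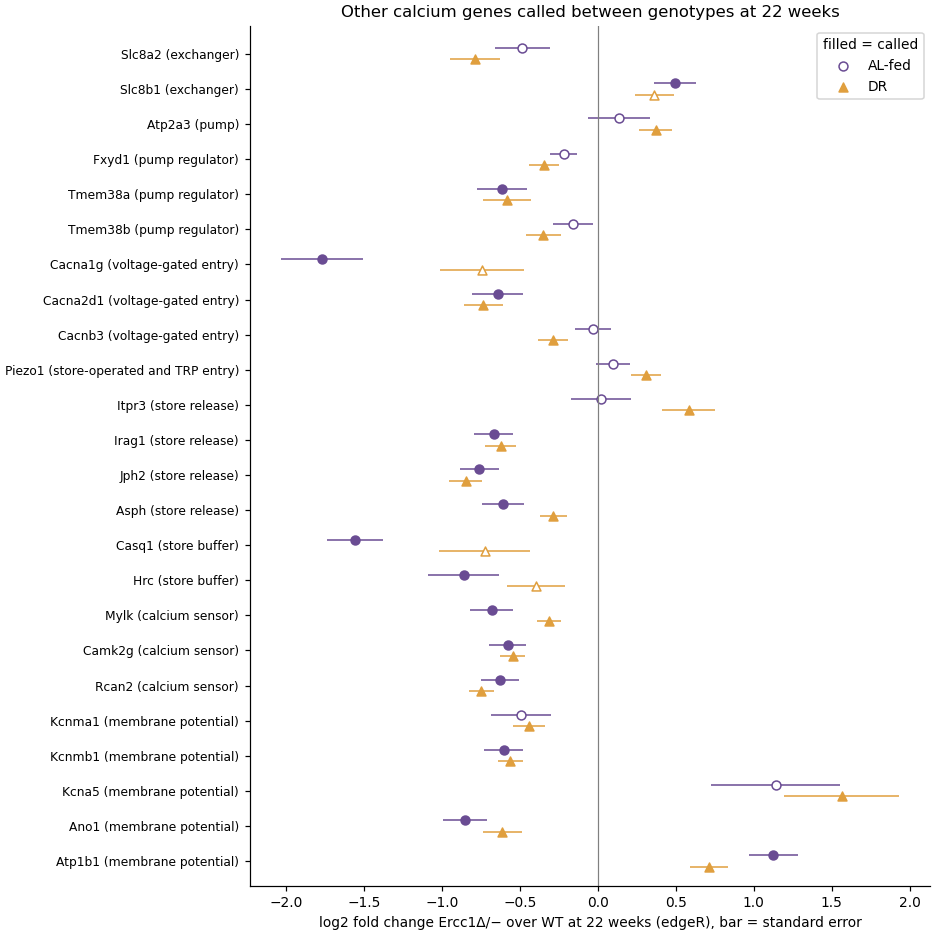
Log2 fold change of Ercc1Δ/− over WT at 22 weeks (x axis, with SE) of 24 of the 25 other calcium genes called on AL (purple circles) or DR (orange triangles), filled where called. Casq1 and Cacna1g lie at -1.56 and -1.77 on AL, and Atp1b1 lies above 0 on both diets.

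At 6 weeks 3 of the 73 were called in edgeR, beside 1.13% of all tested genes called lower, and 7 in DESeq2. The 3 were all lower in Ercc1Δ/−: Jph2 (-0.52 ± 0.11, adjusted p = 0.0141), Mylk (-0.50 ± 0.12, adjusted p = 0.0356) and Rcan2 (-0.55 ± 0.11, adjusted p = 0.0102). In Ercc1Δ/− mice 3 of the 73 (4 in DESeq2) were lower at 22 than at 6 weeks, beside 2.57% of all tested genes, namely Casq1 (-1.94 ± 0.17, adjusted p = 2.93e-07), Cacna1g (-1.61 ± 0.27, adjusted p = 5.35e-04) and Asph (-0.45 ± 0.13, adjusted p = 0.0441). For Casq1 (-1.47 ± 0.23, adjusted p = 0.00262) and Cacna1g (-1.79 ± 0.33, adjusted p = 0.00793) the genotype difference itself differed between the ages. In WT mice DR gave 2 calls (3 in DESeq2), beside 0.939% of all tested genes called lower, with lower Asph (-0.43 ± 0.09, adjusted p = 0.0118) and Calr, the calcium-binding chaperone calreticulin (-0.40 ± 0.09, adjusted p = 0.0256). DR in Ercc1Δ/− mice gave no call among the 73 in edgeR or DESeq2, with 12 unadjusted p under 0.05, beside 0.648% of all tested genes called higher. At so low a share, nothing is read from the absence of higher calls among the 73. The share called lower is not reported here, so the absence of lower calls is not read either. Age in WT and the difference between diets also gave no call among the 73 in either tool, with 7 and 8 unadjusted p under 0.05. Of all tested genes, 0.138% were called lower and 0.0971% higher with age in WT, and 0.0405% and 0.0567% for the difference between diets. In Ercc1Δ/− mice of 22 weeks, Casq1 stood at 110 ± 42.2 normalized counts on AL and 96.3 ± 32.5 on DR (SD, n = 4 and 5).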

How the data were processed

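RNA was sequenced from 29 samples of mouse aortic arch, 1 per mouse. Per the labels and the paper's methods, the authors moved UMIs to the read headers (UMI-tools 1.1.2), trimmed reads with fastp, aligned them with STAR 2.7.10a to GRCm39, removed duplicates and counted reads over whole gene bodies with HTSeq 2.0.2. The authors deposited raw counts per gene and sample, without normalization, and 5 lines of unassigned reads (7.27% to 10.1% without a feature and 1.40% to 1.82% ambiguous in the 28 samples), which were kept out of totals and tests. Since UMIs were collapsed, a count is close to a molecule, and a scarce gene is limited by counting error.

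Sample 003 was left out, as in the study. The test took genes whose counts exceeded 10 in over 10 of the 28 samples, and was run with edgeR 4.0.16 in R 4.3.3 (quasi-likelihood F test, robust, TMM), with group and sex in the model, in 1 fit over the 18 AL-fed samples and 1 over the 18 samples of 22 weeks. Adjusted p-values are Benjamini-Hochberg values over all tested genes. Calls needed an adjusted p not above 0.05 together with a change of 1.2-fold or more (a log2 of 0.263), and for a difference of differences the adjusted p alone. To normalize, each count was divided by its total times its TMM factor and multiplied by 3703241, the mean total. Log2 CPM used a prior count of 2. Positions came from GENCODE M39. The script was tested on simulated data first.

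The genes and lists, the comparisons and the rule for named genes (all 10 genes, the called genes of the hand-written list with the smallest p, up to 8 a comparison, with relatives of the 10, markers, and the 3 most similar genes per gene) were chosen with earlier results of these data known. For similarity only the first 1 or 2 of the 3 are named. Results for some genes are not reported here. Sln was named beyond that rule, after its values were seen, and the ratio to smooth muscle markers and the span classes were also chosen then. Alternatives were DESeq2 1.42.0, RLE size factors, no count filter, sample 003 added, no sex term, other sets of samples in the fit, edgeR's older way of estimating dispersion, thinning to 921167 counts and leaving out each sample in turn.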

Additional observations from a re-analysis of the deposited data

Results flagged for a closer look

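In 3 of the 60 groups of values looked at (10 genes in 6 groups), the lowest sample stood apart by Dixon's 95% criterion, which chance passes in about 1 group in 20. Slc8a1 was at 98.3 normalized counts in sample 014 of the Ercc1Δ/− mice on DR, the shallowest library, with the next sample at 162. Atp2b4 was at 877 in sample 012 of the WT mice of 22 weeks on AL, with the next at 1076. Itpr1 was at 418 in sample 013 of the Ercc1Δ/− mice of 22 weeks on AL, the sample with skeletal muscle markers, with the next at 502. The calls of Atp2b4 and Itpr1 between genotypes held without these samples. Slc24a3 differed between genotypes by -0.57 ± 0.13 (log2) more at 22 than at 6 weeks on AL, a difference of differences that passed the adjusted threshold. As it was chosen for having changed, this is a description.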

How the results depend on the processing

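Between genotypes at 22 weeks, Atp2a2, Atp2b4, Cacna1c and Itpr1 on AL and Atp2b4 on DR were called under each of the 17 and 19 alternatives. The counts of 5 and 2 also hold Slc24a3, which was chosen on its change and is no support. Ryr2 was also called on AL in DESeq2 and with all 6 groups in the fit (6 each), and no called log2 fold change reversed. The other calcium genes called at 22 weeks on AL numbered 15 to 18 against 16. Age in WT gave 0 under all 18 alternatives. The other counts of the 10 genes moved, and the cause was not tested. Genotype at 6 weeks gave 0, with 3 in DESeq2, 1 with sample 003 added, 2 with all 6 groups in the fit and 0 to 1 when 1 sample was left out (1 without 008 or 023). Age in Ercc1Δ/− gave 4, with 2 with sample 003 added, 1 with only the compared groups in the fit, 2 after thinning and 1 to 5 when 1 sample was left out (5 without sample 027, 1 without 004, 2 without 005, 008, 015 or 023). For that comparison Itpr1 was also called in DESeq2 and with all 6 groups in the fit, and Cacna1c was not called with RLE size factors. The difference between ages gave 1, with 3 in DESeq2, 0 after thinning and 0 to 2 when 1 sample was left out (0 without 004, 005, 008, 009, 013, 018, 020, 023 or 025, 2 without 024 or 026). DR in WT gave 1, with 0 after thinning and 0 to 1 when 1 sample was left out (0 without 018). DR in Ercc1Δ/− gave 2, with 3 in DESeq2 (Slc24a3 besides), 1 without the count filter, with sample 003 added, with all 6 groups or with only the compared groups in the fit, 0 after thinning and 0 to 2 when 1 sample was left out (0 without 004, 005, 013, 016 or 026, 1 without 014, 022 or 029). Genotype on DR gave 2, with 5 without the count filter, 4 with only the compared groups and 2 to 5 when 1 sample was left out (5 without 022). The difference between diets gave 0, with 1 in DESeq2 and 0 to 1 when 1 sample was left out (1, Itpr1, without 007). No paired analysis was possible because each mouse gave 1 sample and no replicate numbers are shared between groups. Slc24a4 and Pln are limited by depth, with 2 to 58 and 1 to 68 reads per sample.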
